A study of Mus musculus with 8 samples.

Results

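The 10 genes described here are the core of the MHC class I presentation pathway: the heavy chains *H2-D1* and *H2-K1*, the light chain *B2m*, the peptide transporter subunits *Tap1* and *Tap2*, the loading factor *Tapbp*, the immunoproteasome subunits *Psmb8*, *Psmb9* and *Psmb10*, and the transcriptional activator *Nlrc5*. They were taken by symbol from a table of 8278 genes. Of the 10, 9 have a row and *Tap2* has none. The table is a selection that the authors made on the same libraries, with every row under an adjusted p-value of 0.05, so a gene without a row is not known to be unchanged or silent. The gene spans of the table (mm10) put *Tapbp* at chr17:33915899-33929288, *H2-K1* at chr17:33996017-34000333, *Psmb9* at chr17:34181988-34187764, *Tap1* at chr17:34187553-34197225, *Psmb8* at chr17:34197721-34201454 and *H2-D1* at chr17:35262730-35267499. Outside this stretch lie *B2m* at chr2:122147686-122153083, *Nlrc5* at chr8:94472763-94527272 and *Psmb10* at chr8:105935728-105938392. Their identifiers are ENSMUSG00000073411 for *H2-D1*, ENSMUSG00000061232 for *H2-K1*, ENSMUSG00000060802 for *B2m*, ENSMUSG00000037321 for *Tap1*, ENSMUSG00000024308 for *Tapbp*, ENSMUSG00000024338 for *Psmb8*, ENSMUSG00000096727 for *Psmb9*, ENSMUSG00000031897 for *Psmb10* and ENSMUSG00000074151 for *Nlrc5*.

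Bulk RNA-Seq was done on MCECs, a commercial mouse cardiac endothelial cell line grown in DMEM with fetal bovine serum, to look for growth signals that depend on HDAC3, a histone deacetylase. The EV group (4 libraries) was transduced with empty lentiviral vector, and the *Hdac3* KO group (4 libraries) with a lentiCRISPR v2 virus carrying Cas9 and a guide RNA against *Hdac3*. The methods describe the *Hdac3* KO cells as stable, do not say whether they are a pool or a clone, and the labels name no interferon treatment in either group. The labels do not say that the 4 libraries of a group came from separate cultures, so the p-values measure the spread between these libraries, which may be technical. The paper's reporting summary calls the replicates typical of its in vitro studies technical, without naming these libraries.

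MHC class I molecules show peptides from inside the cell to CD8+ T cells. The proteasome cuts proteins into peptides, the TAP transporter carries these into the endoplasmic reticulum, and tapasin (*Tapbp*) holds empty class I molecules beside the transporter until a peptide binds. Interferon raises the whole pathway and swaps the catalytic subunits of the constitutive proteasome for those of the immunoproteasome, while NLRC5 acts with RFX, CREB/ATF and NF-Y factors on class I promoters.

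The promoters of the 2 heavy chains and of *B2m* are shown because they hold several of the elements known from class I promoters. Promoter bases are from RefSeq (GRCm38.p6, the patched form of mm10), where 8 of the 9 members with a row had an entry of 300 bases, from 250 before the start to 50 after it. *Nlrc5*, *Tap2* and *Psmb7* had no entry. Capitals mark a kappa B element (GGGATTCCC), an interferon regulatory factor core (AANNGAAA), an X2 element core (TGACG) and a CCAAT box (CCAAT), each searched on both strands. The stretch of *H2-K1* covers 200 to 15 bases before its start (chr17:34000348-34000533, minus strand), and that of *B2m* 200 to 2 bases before its start (chr2:122147487-122147685, plus strand). For *H2-D1* only the 28 bases from the kappa B element to the interferon core are given (chr17:35262924-35262951, plus strand).
H2-K1: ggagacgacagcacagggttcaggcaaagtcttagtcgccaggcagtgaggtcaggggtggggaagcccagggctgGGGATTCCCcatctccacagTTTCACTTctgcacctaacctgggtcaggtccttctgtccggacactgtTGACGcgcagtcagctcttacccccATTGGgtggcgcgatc
H2-D1: GGGATTCCCcatctcctcagTTTCACTT
B2m: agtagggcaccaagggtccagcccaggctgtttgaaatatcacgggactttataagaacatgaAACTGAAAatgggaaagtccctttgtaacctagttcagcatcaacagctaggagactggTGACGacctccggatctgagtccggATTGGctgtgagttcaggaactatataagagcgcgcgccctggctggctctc

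None of the capitals in these stretches overlap. Aligned at the kappa B element without gaps, the stretch of *H2-K1* and the corresponding bases of *H2-D1* were identical at 163 of 186 positions (87.6%). The kappa B element was found in *H2-K1* and *H2-D1* and in 0.353% of all 32851 promoter entries. The interferon core was found in *H2-K1*, *H2-D1* and *B2m*, but also in 23.9% of all entries. An X2 core together with a CCAAT box was found in 5 of the 8 members, namely *H2-D1*, *H2-K1*, *B2m*, *Tap1* and *Psmb9*, and in 7.73% of all entries. *Tap1* and *Psmb9* share these matches, since their RefSeq starts point away from each other with 225 bases between. The *Tapbp* entry held CCAAT boxes alone. A gamma activated site (TTCNNNGAA) was found in *Psmb8* and in 8.30% of all entries, and no searched motif was found in *Psmb10*. Of the constitutive counterparts, the *Psmb6* entry held an interferon core and X2 cores, and the *Psmb5* entry an X2 core, neither with a CCAAT box. A match describes letters in a window and is no measure of binding.

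Depth was 15775327 to 21262575 reads in EV and 19356714 to 22255684 reads in *Hdac3* KO libraries, and the table held 84.3% to 85.9% of them. *Hdac3*, the targeted gene, had normalized counts of 1943 to 2147 in EV and 1465 to 1558 in *Hdac3* KO libraries (log2 fold change -0.45 ± 0.04 SE, edgeR adjusted p = 1.0e-13). A guide RNA changes bases and need not remove the transcript, so this level checks the labels only in part. The paper reports that western blots of *Hdac3* KO MCECs verified the deletion, without naming these libraries. Of the 12 endothelial markers listed, 6 have a row, of which 5 were lower, against 49.6% of all rows at an adjusted p-value under 0.01 (*Tek* -1.41, *Kdr* -1.20, *Egfl7* -0.47, *Cd34* -0.30 and *Eng* -0.16 on the log2 scale). *Pecam1* was near zero, with normalized counts of 0 to 1.19 in EV and 1.88 to 8.23 in *Hdac3* KO libraries, whereas *Cdh5*, *Tie1*, *Vwf*, *Emcn*, *Cldn5* and *Erg* have no row. The summed FPKM (reads scaled to gene length and library total) of the 6 went from 118.1 to 120.3 in EV to between 89.3 and 92.4 in *Hdac3* KO, most of it from *Cd34* (means of 94.3 and 70.8). Fibroblast markers had 5 of 6 rows and summed to 770.1 to 790.2 FPKM in EV and 572.9 to 591.4 in *Hdac3* KO, with *Pdgfrb* (-2.29), *Pdgfra* (-1.42), *Dcn* (-1.21) and *Thy1* (-0.13) lower, against the same 49.6%, and *Col1a1* (0.23) higher. Leukocyte markers had 1 of 10 rows (*Cd68*, 124.4 to 136.6 against 279.4 to 313.5 normalized counts), and none of the 6 cardiomyocyte markers has a row. The part of these shifts in the class I results was not tested, and in bulk RNA a smaller share of cells of a type cannot be told apart from less RNA per cell.

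All 9 members with a row were lower in *Hdac3* KO than in EV MCECs at an adjusted p-value under 0.01, where 49.6% of all rows were called lower. The rows had been selected on the same libraries, and 276 of the 8278 were called in neither direction. The log2 fold changes ran from -0.25 (*Psmb10*) to -1.27 (*Tapbp*), with a median of -0.87 for the members and 0.06 for all rows. For 8 of the 9, every *Hdac3* KO library lay below every EV library, which holds for 46.6% of all rows. Fold changes are from edgeR's quasi-likelihood fit to the deposited counts, with Benjamini-Hochberg adjustment over the 8278 rows, and a normalized count is the read count over the library's size relative to the other libraries. Without TMM scaling the median of all rows was -0.06 in place of 0.06, and each of the 9 stayed lower and past the threshold.

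Per length of gene, the chains of the class I molecule itself were far more abundant than the transporter, the immunoproteasome and *Nlrc5*. In EV libraries, *B2m* was highest at 905.6 ± 29.0 FPKM (SD, n = 4), followed by *H2-D1* (450.9 ± 5.09), *H2-K1* (230.6 ± 1.90), *Tapbp* (84.4 ± 1.17), *Psmb10* (22.2 ± 1.79) and *Tap1* (5.71 ± 0.213). *Nlrc5* (1.72 ± 0.112), *Psmb8* (1.47 ± 0.107) and *Psmb9* (1.37 ± 0.109) came last, and their ranges overlap with the next gene in the order. In *Hdac3* KO libraries the first 7 kept this order, from *B2m* at 607.0 ± 8.50 FPKM down to *Nlrc5* at 0.738 ± 0.0764. *Psmb9* (0.691 ± 0.0725) and *Psmb8* (0.681 ± 0.183) overlapped with *Nlrc5* and with each other there too.

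**Figure D1:**
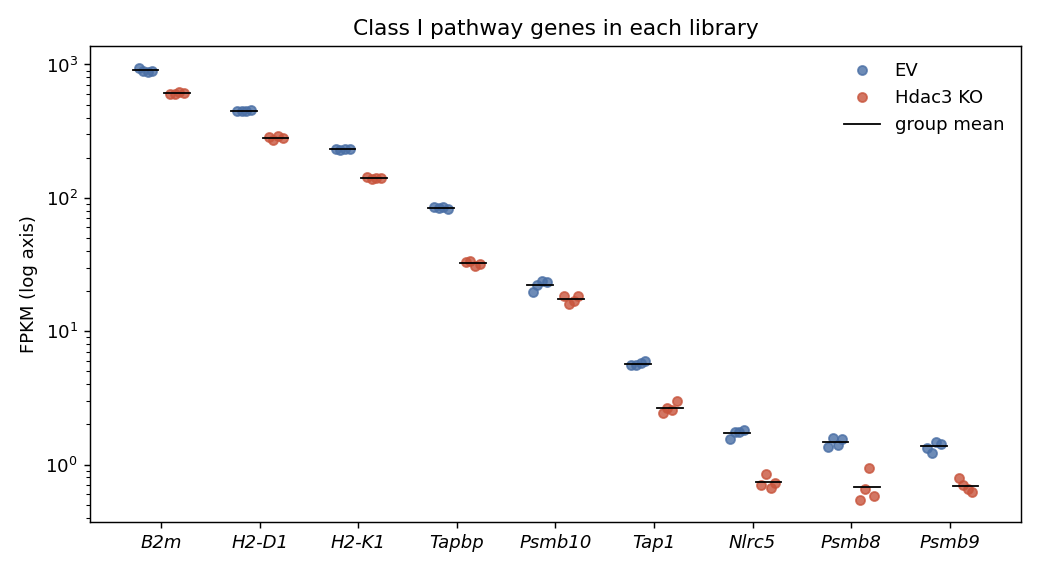
FPKM on a log axis of each class I pathway gene in the 4 EV and 4 *Hdac3* KO libraries (points), with the group mean as a black line. The order from *B2m* to *Nlrc5* is the same in both groups, and the points of *Hdac3* KO lie below those of EV for every gene.

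Of the heavy chains, which form the peptide groove, *H2-D1* had normalized counts of 17705, 17658, 17751 and 18148 in EV and of 12165, 11692, 12531 and 11981 in *Hdac3* KO libraries. The groups do not overlap, and the *Hdac3* KO mean was 67.9% of the EV mean (log2 fold change -0.56 ± 0.03 SE, edgeR adjusted p = 2.1e-20). *H2-K1* had 8083, 8056, 8158 and 8193 in EV and 5435, 5302, 5425 and 5360 in *Hdac3* KO libraries. It was at 66.2% of EV (log2 fold change -0.59 ± 0.02 SE, edgeR adjusted p = 2.8e-21), again without overlap. Class I genes are close copies of each other: 14.3% of the 50-base windows in the longest coding transcript of *H2-D1* and 8.79% of those of *H2-K1* occur in other genes, so reads could be split or shared between them depending on a counting step that is not given in the sources used here.

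*B2m*, the invariant light chain that every classical class I molecule needs to reach the surface, had 15265, 14519, 14232 and 14535 in EV and 10528, 10528, 10856 and 10667 in *Hdac3* KO libraries. All 4 *Hdac3* KO values lie close together and below EV, at 72.7% of the EV mean (log2 fold change -0.46 ± 0.03 SE, edgeR adjusted p = 8.5e-18). None of the windows of *B2m* is shared with another gene. Within a library, the FPKM ratio of *H2-K1* to *B2m* was 0.255 ± 0.00861 in EV and 0.232 ± 0.00337 in *Hdac3* KO (SD, n = 4), and all *Hdac3* KO ratios were below all EV ratios (exact permutation test, two-sided, p = 0.0286, 0.0343 adjusted over 6 ratios). For *H2-D1* to *B2m* the ratio went from 0.498 ± 0.0170 to 0.465 ± 0.00922 (exact permutation p = 0.0286, adjusted 0.0343). Both heavy chains thus fell slightly further than the light chain, by 0.13 and 0.10 on the log2 scale. The ratio of *H2-K1* to *H2-D1* was 0.511 ± 0.00376 in EV and 0.499 ± 0.00974 in *Hdac3* KO, and did not pass the test (exact permutation p = 0.0571, difference of -0.03 on the log2 scale). With 4 libraries against 4 the smallest exact p is 0.0286. With any one *Hdac3* KO library left out, both heavy chain to *B2m* ratios had an exact permutation p of 0.0571, and without *Hdac3* KO replicate 2 the ratio of the heavy chains had 0.0286.

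*Tapbp* had the largest fall of the members. Its normalized counts were 4612, 4584, 4646 and 4529 in EV and 1951, 1981, 1822 and 1874 in *Hdac3* KO libraries. *Hdac3* KO libraries held 41.5% of the EV level (log2 fold change -1.27 ± 0.03 SE, edgeR adjusted p = 2.1e-28), and 5.19% of all rows had a lower fold change. Of the exonic bases of *Tapbp*, 24.9% overlap with exons on the opposite strand and 4.11% with exons on its own strand (*Gm19412* and *Zbtb22*), and no source used here says that strand was used in counting. *Zbtb22* had a log2 fold change of -0.18 ± 0.05 SE, and *Gm19412* has no row.

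*Tap1*, a subunit of the peptide pump, had 407.1, 408.7, 421.0 and 442.6 normalized counts in EV and 192.5, 213.2, 204.3 and 241.0 in *Hdac3* KO libraries. Its level was 50.7% of EV without overlap of the groups (log2 fold change -0.98 ± 0.07 SE, edgeR adjusted p = 1.7e-14). Its partner *Tap2* has no row, so the ratio of the subunits could not be formed.

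The immunoproteasome subunits *Psmb8* and *Psmb9* were the members with the fewest reads. *Psmb8* had 48.7, 56.6, 50.1 and 55.9 normalized counts in EV and 21.0, 25.6, 36.7 and 22.5 in *Hdac3* KO libraries. *Hdac3* KO replicate 3 was the highest of its group, still below every EV library, and the mean was 50.1% of EV (log2 fold change -0.99 ± 0.19 SE, edgeR adjusted p = 1.5e-05). With 20 reads in its lowest library, counting error alone was 22.4% there, and 14.7% of its exonic bases overlap with *Gm20496* on the opposite strand. *Psmb9* had 72.4, 66.6, 79.4 and 78.0 in EV and 46.3, 41.2, 38.6 and 36.6 in *Hdac3* KO libraries. The groups do not overlap (54.9% of EV, log2 fold change -0.87 ± 0.15 SE, edgeR adjusted p = 3.2e-06), and the counting error of its lowest library, with 39 reads, was 16.01%. The gene spans of *Psmb9* and *Tap1* share 212 bases on opposite strands, and 5.79% of the exonic bases of *Psmb9* lie in exons of *Tap1*.

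*Psmb10*, the third subunit, was the only member whose groups overlap in normalized counts. Its normalized counts were 467.6, 529.7, 563.1 and 557.0 in EV and 472.4, 411.7, 433.1 and 475.3 in *Hdac3* KO libraries. EV replicate 1 lay below 2 of the *Hdac3* KO libraries, and the mean in *Hdac3* KO was 84.7% of EV (log2 fold change -0.25 ± 0.06 SE, edgeR adjusted p = 4.3e-04). In FPKM, which carries no TMM scaling, the EV range of 19.7 to 23.6 lay above the *Hdac3* KO range of 15.9 to 18.3. On normalized counts the exact permutation test gave p = 0.0857 for *Psmb10* and 0.0286, the smallest it can give, for each of the other 8 members, before adjustment.

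*Nlrc5*, the class I transactivator, had 201.8, 228.8, 229.8 and 235.9 normalized counts in EV and 99.95, 119.8, 95.1 and 103.1 in *Hdac3* KO libraries. It was at 46.6% of EV without overlap (log2 fold change -1.10 ± 0.10 SE, edgeR adjusted p = 2.0e-12). On the log2(FPKM + 1) scale, which shrinks low levels, its difference was -0.64. EV replicate 1 was the lowest EV library for *Tap1*, *Psmb8*, *Psmb10* and *Nlrc5* but the highest for *B2m*.

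**Figure D2:**
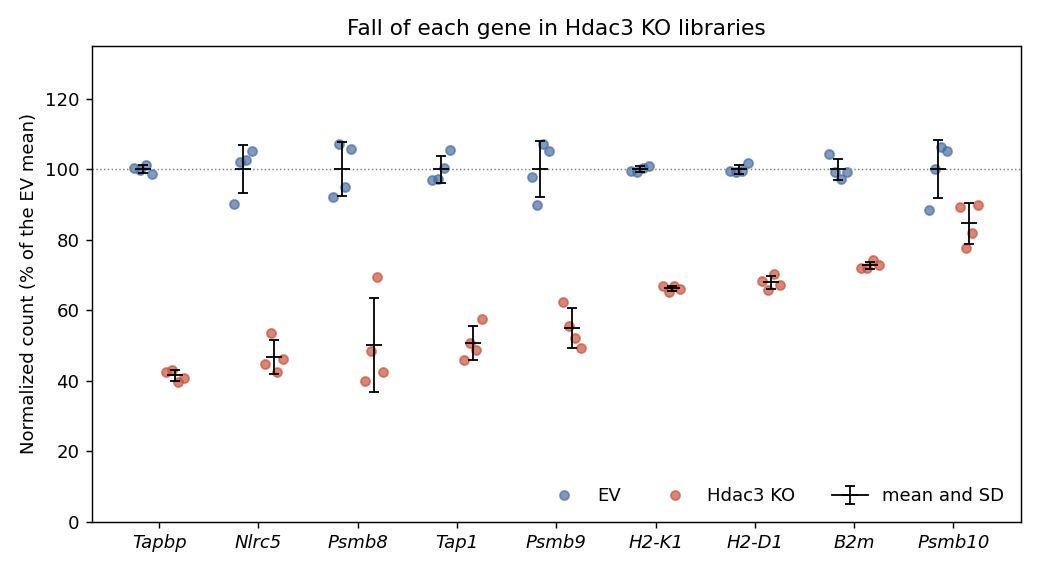
Normalized counts of each gene as a percentage of its EV mean, for the 4 EV and 4 *Hdac3* KO libraries (points), with mean and SD. Group means in *Hdac3* KO run from 41.5% for *Tapbp* to 84.7% for *Psmb10*, the gene whose points overlap.

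The constitutive catalytic subunits, which the immunoproteasome subunits replace, moved the other way. *Psmb5*, *Psmb6* and *Psmb7* were each called higher in *Hdac3* KO, where 47.1% of all rows were called higher, by 0.23 ± 0.04, 0.35 ± 0.03 and 0.47 ± 0.03 SE on the log2 scale (edgeR adjusted p = 2.9e-06, 1.1e-12 and 2.9e-17). For *Psmb5* the call was lost without TMM scaling (adjusted p = 0.0114) and with limma on log2(FPKM + 1) (adjusted p = 0.0141), and 57.1% of its windows occur in other genes, most in *Gm3375*.

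Within a library, the FPKM ratio of *Psmb8* to *Psmb5* was 0.0188 ± 0.00192 in EV and 0.00801 ± 0.00197 in *Hdac3* KO (SD, n = 4), a difference of -1.26 on the log2 scale. The ratio of *Psmb9* to *Psmb6* was 0.00911 ± 0.000452 in EV and 0.00392 ± 0.000369 in *Hdac3* KO (-1.22). With 1 added to both FPKM values these 2 differences were -0.67 and -0.72. The ratio of *Psmb10* to *Psmb7* was 0.123 ± 0.0121 and 0.0748 ± 0.00549 (-0.71). Each of the 3 ratios was lower in all *Hdac3* KO libraries than in any EV library (exact permutation p = 0.0286, adjusted 0.0343 over 6 ratios). The groups of *Psmb10* overlap in normalized counts but not in FPKM, from which the ratio is formed, so the ratio adds no separation. The transcript of each immunoproteasome subunit was a minor one beside its constitutive counterpart in both groups.

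**Figure D3:**
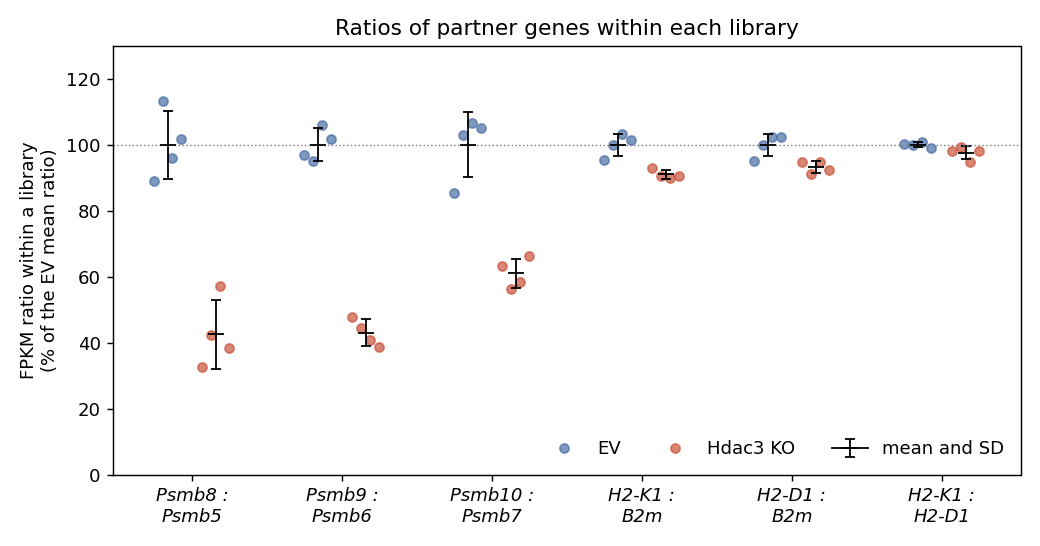
FPKM ratio of 2 partner genes within each of the 4 EV and 4 *Hdac3* KO libraries, as a percentage of the mean EV ratio (points, with mean and SD). The groups lie far apart for *Psmb8* to *Psmb5* and *Psmb9* to *Psmb6*, and nearer, without overlap, for *Psmb10* to *Psmb7*. The heavy chain to *B2m* ratios are close without overlap, and those of *H2-K1* to *H2-D1* overlap.

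The rest of the proteasome core followed the constitutive subunits. All 11 other core subunits (*Psma1* to *Psma7* and *Psmb1* to *Psmb4*) were higher, against 47.1% of all rows, with the 3 largest rises in *Psmb3* (0.55), *Psma1* (0.47) and *Psma3* (0.44) on the log2 scale and the smallest in *Psma4* and *Psmb4* (both 0.21). Without TMM scaling 10 of the 11 passed, and with limma on log2(FPKM + 1) 9 did, as *Psma4* and then also *Psmb4* lost the call. In these 2 settings 2671 and 2532 of all 8278 rows were called higher, in place of 3895. Among the 9 activators and assembly factors listed, 7 have a row, of which 2 were lower and 4 higher, against 49.6% and 47.1% of all rows, and *Psmg3* did not pass the test (adjusted p = 0.0149). The lower pair was *Psme1* (normalized counts 952.5 ± 10.1 in EV and 661.8 ± 25.0 in *Hdac3* KO, log2 fold change -0.53) and *Psme2* (1205 ± 33.8 and 793.3 ± 5.02, -0.60), which encode the PA28 alpha and beta subunits of the interferon-inducible proteasome cap. *Psme3* and *Psme4*, which encode other caps, were higher by 0.29 and 0.25, and the assembly factors *Psmg1* and *Pomp* by 0.36 and 0.12. The rise of *Pomp* rests on the scaling, since without TMM its log2 fold change was 0.01 (edgeR adjusted p = 0.835).

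Of 16 genes for peptide trimming, translocation and loading, 12 have a row. *Erap1*, the aminopeptidase that trims class I peptides in the endoplasmic reticulum, was the single gene called lower, at 567.2 ± 25.1 normalized counts in EV and 295.6 ± 16.3 in *Hdac3* KO (log2 fold change -0.94 ± 0.06 SE, edgeR adjusted p = 6.3e-16). Another 10 were higher and *Blmh* did not pass the test (adjusted p = 0.0116), against 47.1% of all rows called higher and 49.6% called lower. Without TMM scaling, and with limma on log2(FPKM + 1), 7 were higher, as *Npepps*, *Pdia3* and *Sec61g* lost the call. Of all 8278 rows, 2671 were called higher without TMM scaling and 2532 with limma. The highest fold changes were those of the cytosolic peptidase *Lap3* (0.38), the lectin chaperone *Canx* (0.37) and the chaperone *Hspa5* (0.36), and *Calr* and *Pdia3* of the loading complex were higher by 0.26 and 0.19. *Calr*, *Canx* and *Pdia3* also fold other glycoproteins, and were higher, *Pdia3* not without TMM scaling, while *Tapbp* was lower.

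The listed relatives among class I heavy chains fell with the members. Of 24 listed, 9 have a row and every one was lower (median -1.04 on the log2 scale), against 49.6% of all rows. The nonclassical gene *H2-T23* had a log2 fold change of -1.37 (145.7 ± 19.2 normalized counts in EV, 56.5 ± 3.24 in *Hdac3* KO), *H2-Q7* one of -1.20 and *H2-Q4* one of -1.12. *H2-Q6* had 5.22 to 9.76 normalized counts in EV and 0.938 to 2.82 in *Hdac3* KO, too few for a fold to be read. *H2-T10* (-0.78), *Cd1d1* (-0.57), which presents lipids, and *Fcgrt* (-0.51), which binds immunoglobulin and albumin, had the smallest falls. Apart from *H2-T24* (3.24%) and *Fcgrt* (none), 24.3% to 44.7% of the 50-base windows of these genes occur in other genes, and their counts are uncertain as separate genes. *H2-K2*, a class I copy beside *H2-K1* that is not on the list, was higher (0.75, edgeR adjusted p = 4.6e-04). Its mean normalized counts were low (28.9 in EV and 48.3 in *Hdac3* KO), and the windows it shares with other genes were not counted.

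Among 22 class I promoter factors and genes of the interferon signal chain, 17 have a row. Of these, 12 were lower and 3 were higher, beside 49.6% and 47.1% of all rows. The other 2, *Creb1* and *Nfyc*, did not pass the test (edgeR adjusted p = 0.0105 and 0.0223). Among the lower genes were *Irf9* (-0.93), which encodes a subunit of an interferon-activated transcription factor, and *Socs1* (-0.82, with 21.1 to 31.3 normalized counts in EV and 11.3 to 22.1 in *Hdac3* KO), a feedback inhibitor of the chain. With DESeq2, and with adjustment over 30000 genes, 10 were lower, as *Rfx5* and *Socs1* lost the call. The RFX subunits *Rfxank*, *Rfx5* and *Rfxap*, which act with NLRC5, were lower by smaller amounts (-0.49, -0.28 and -0.27), and *Rfxap* overlapped between the groups. Higher genes were *Atf1* (0.38), *Nfyb* (0.31) and the interferon gamma receptor chain *Ifngr1* (0.26), which lost the call without TMM scaling (edgeR adjusted p = 0.0106), whereas the partner chain *Ifngr2* was lower (-0.35, adjusted p = 8.0e-10). *Irf1*, *Irf2*, *Jak1*, *Ifnar1* and *Ifnar2* have no row.

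MHC class II presentation, which takes peptides from endosomes and is controlled by another transactivator, had 2 of 12 genes with a row, both higher, against 47.1% of all rows. *Cd74*, the invariant chain, had 59.3 to 75.5 normalized counts in EV and 161.3 to 183.0 in *Hdac3* KO libraries (log2 fold change 1.37 ± 0.11 SE, edgeR adjusted p = 3.8e-13). *H2-DMa*, a peptide editor, had 27.3 to 41.1 and 54.7 to 77.2 (0.77 ± 0.17 SE). *Ciita* and the class II heavy chain genes *H2-Aa*, *H2-Ab1* and *H2-Eb1* have no row.

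**Figure D4:**
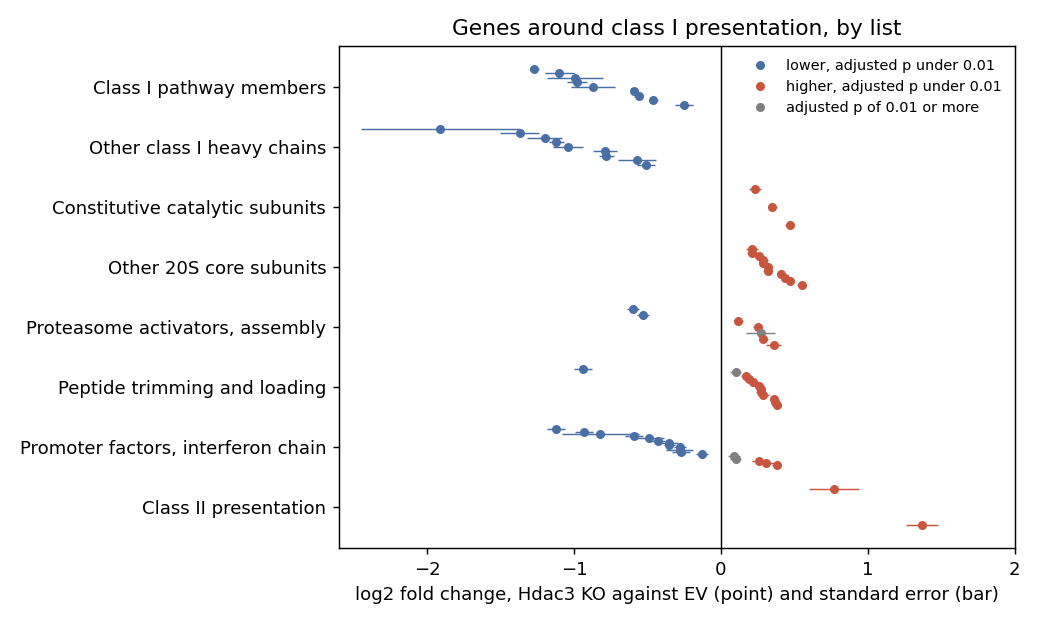
log2 fold change of *Hdac3* KO against EV (points, with standard errors) for the class I pathway members and each related list, one point per gene with a row. Members and the listed other class I heavy chains lie left of zero and the core proteasome subunits right of it, and the remaining lists are mixed or, for class II, higher.

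The chromosome 17 members lie in the MHC. The stretch from the start of *Tapbp* to the end of *H2-D1* (chr17:33915899-35267499) holds 41 rows, of which 24 were lower and 17 higher. Without the 6 members, 18 of 35 rows were lower and 17 higher (median log2 fold change -0.15), close to the share of lower calls in the whole table. *Psmb9*, *Tap1* and *Psmb8* lie next to each other, with 495 bases between the gene spans of *Tap1* and *Psmb8*, and had log2 fold changes of -0.87 to -0.99, whereas the nearest row on the other side of *Psmb9*, *H2-DMa*, was higher.

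The mean profile of the 9 members over the 8 libraries was compared with that of 7180 other rows with at least 100 normalized counts on average, each centred on its EV mean on the log2 scale. The 5 nearest rows were *Uap1l1*, *Ano8*, *Smad6*, *Timp1* and *1600012H06Rik*, with root mean square differences of 0.034 to 0.035 and log2 fold changes of -0.81 to -0.74. None of them is on any list used here.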

How the data were processed

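Bulk RNA-Seq of 4 *Hdac3* KO and 4 EV MCEC libraries was analysed. Per the paper's methods, a provider sequenced the libraries and reads were aligned to mm10 with tophat2 and bowtie2; the submitters' processing notes name CASAVA and DESeq 1.6.3. The methods name lumi for extracting a count matrix and cufflinks and DESeq2 for differential expression; which program assigned reads to genes, and with which annotation, is not given in the sources used here. The authors deposited whole-number read counts for each gene, not normalized, beside FPKM values that follow from count, gene length and library total. The authors' p-value columns and fold changes hold their own comparison; the adjusted p-value was read only to find that each of the 8278 rows lies under 0.05.

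Library totals were recovered from count, length and FPKM and scaled with TMM. The main test was edgeR 4.0.16 (R 4.3.3), quasi-likelihood, with adjustment over 8278 rows and a threshold of 0.01, without a filter. Because rows were selected by the authors on the same libraries, counts of calls describe the table and not the transcriptome. The adjustment over 8278 rows does not account for that selection. Replicates were compared, and none agreed within sampling noise. Counting errors cover counting only, and reads carry no molecular identifiers. Standard errors are from the edgeR fit, and SDs are over the 4 libraries of a group. For ratios, all 70 arrangements of the libraries were enumerated in an exact permutation test (two-sided). Alternatives used DESeq2 1.42.0 and limma 3.58.1 with a pseudocount of 1. Fits were tested on simulated data with few changed rows, in equal numbers up and down, unlike this table, where most rows were called. Shared 50-base windows and exon overlaps came from GENCODE (mm10). Genes and lists were chosen with earlier results of these data known. Named genes were the members, *Psmb5* to *Psmb7*, up to 3 lowest and 3 highest called genes of each list and the 5 nearest profiles; others were named after their values were seen. One gene that the rule names is not reported here.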

Additional observations from a re-analysis of the deposited data

Results flagged for a closer look

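The FPKM ratio of *Psmb10* to *Psmb7* in EV replicate 1 was 0.105, far below the other 3 EV libraries at 0.126 to 0.131, with a gap of 0.841 of the range of the group. It was still above all 4 *Hdac3* KO libraries. Of 30 groups of 4 libraries examined in this way over the members and ratios, 1 stood out, where chance alone gives about 1.5.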

How the results depend on the processing

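The 9 members stayed lower and past their threshold under all 16 alternative fits, with the largest adjusted p at 0.00395 (*Psmb10*). Over the whole table, 3948 to 4120 rows were called lower in these fits. Fold changes of genes with few reads were smaller on the log2(FPKM + 1) scale, with -0.56 for *Psmb8*, -0.48 for *Psmb9* and -0.64 for *Nlrc5*. With 1 added to both FPKM values, the ratios of *Psmb8* to *Psmb5* and *Psmb9* to *Psmb6* differed by -0.67 and -0.72 on the log2 scale. Requiring an absolute log2 fold change over 1 left 2 members (*Tapbp* and *Nlrc5*), and in the 7 related lists 6 genes lower and 1 higher in place of 24 and 33. The share of all rows passing this requirement was not counted. By fold change alone, 6.98% of all rows were lower than *Nlrc5* and 8.46% lower than *Psmb8*, the next member. Without TMM scaling, and with limma, 26 list genes were higher in place of 33, and 24 stayed the count of lower ones. Without TMM scaling 4120 rows were lower and 2671 higher, and with limma 4054 and 2532, in place of 4107 and 3895; the cause was not tested.

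Leaving out 1 library at a time kept 9 members lower and gave 22 to 24 lower and 33 to 35 higher genes in the lists. Of all 8278 rows, 3955 to 4024 were called lower and 3634 to 3806 higher in these fits. The ratios ranged from -0.16 to -0.12 (*H2-K1* to *B2m*), -0.12 to -0.09 (*H2-D1* to *B2m*) and -0.04 to -0.02 (*H2-K1* to *H2-D1*) on the log2 scale. With any *Hdac3* KO library left out, both ratios to *B2m* had an exact permutation p of 0.0571, and without *Hdac3* KO replicate 2 that of *H2-K1* to *H2-D1* had 0.0286.

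Same-numbered libraries showed no strong shared deviation (correlations of -0.107 to 0.118 over 7187 genes). The labels do not say whether the numbers mark pairs, and these correlations cannot settle it. With the replicate block, 9 members, 24 lower and 33 higher list genes were called, as without it, beside 4106 lower and 3866 higher rows in all. An exact sign-flip permutation test of same-numbered pairs with the replicate block cannot go below p = 0.125, which was the value of the ratios of *Psmb8* to *Psmb5* (-1.26), *Psmb9* to *Psmb6* (-1.22), *Psmb10* to *Psmb7* (-0.71), *H2-K1* to *B2m* (-0.13) and *H2-D1* to *B2m* (-0.10).

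Depth limits *Psmb8* and *Psmb9* most, with 20 and 39 reads in their lowest libraries.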

Other observations

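Among the rows between the chromosome 17 members, some that belong to no list stood out and were named after their values were seen. *C4b*, a complement component, went from a mean of 690.5 to 152.7 normalized counts (log2 fold change -2.18, edgeR adjusted p = 5.0e-25). *H2-K2*, a copy of the class I heavy chain beside *H2-K1*, was higher, at 28.9 in EV and 48.3 in *Hdac3* KO (0.75, edgeR adjusted p = 4.6e-04), in contrast to the 9 listed class I relatives. Windows that *H2-K2* shares with other genes were not counted, so its low count is uncertain as that of a separate gene. *Brd2*, a reader of acetylated histones that lies between *H2-K1* and *Psmb9*, was higher by 0.70 (5968 and 9680 normalized counts).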
